A study of Homo sapiens with 16 samples.

Results

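RAG1, RAG2, DNTT and PTCRA are 4 of the 57820 genes listed in the deposited table, and they were taken from it by symbol across all 16 libraries. RNA had been sequenced from 3 lines of human T-ALL (T-cell acute lymphoblastic leukaemia), CUTLL1, KOPTK1 and HPB-ALL (labelled Koptk1 and HpbALL for the last 2). In 10 libraries the long non-coding RNA lnrCXCR4 was targeted, and 6 libraries were controls. The guide libraries came from cells infected with lentivirus carrying CRISPR components, with guide 1 or guide 2 in each of the 3 lines, and a non-targeting guide as control (1 library in CUTLL1, 1 in KOPTK1 and 2 in HPB-ALL). The ASO libraries came from CUTLL1 and KOPTK1 cells given antisense oligonucleotide (ASO) 1 or 2 in the medium at 1 uM, with 1 scrambled oligonucleotide control in each line. Each line is a single cultured leukaemia, and neither the time after treatment nor the Cas protein is stated in the sources used here. The labels do not say whether libraries came from separate cultures, so p-values reflect the spread among libraries. That spread includes differences between guides or ASOs 1 and 2 and, where lines are pooled, differences of effect between lines. It may hold no spread between separate cultures.

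The 4 genes act together while a developing T cell builds its antigen receptor. RAG1 and RAG2 encode the subunits of the recombinase that cuts DNA beside the V, D and J segments of the receptor genes, RAG1 holding the nuclease active site and RAG2 binding the modified histone tails of active chromatin. DNTT encodes TdT, a template-independent DNA polymerase that adds nucleotides at the junctions, and PTCRA encodes the invariant alpha chain that pairs with a newly rearranged beta chain in the pre-T-cell receptor. All are low in mature T cells, and T-ALL cells often keep them on because the leukaemia resembles immature thymocytes.

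All 4 genes were lower in every targeted library than in every control library of the same line, with guides and with ASOs. How many of all genes separate in this way was not counted, so the separation does not set these 4 apart. In the joint comparison below, 38.8% of all genes tested were called lower. DNTT kept between 7.55% and 14.0% of its control level by experiment, RAG1 between 12.8% and 18.3%, RAG2 between 22.8% and 38.6%, and PTCRA between 24.6% and 40.0%. The recombinase genes therefore did not fall by the same amount: RAG1 fell further than RAG2 in 10 of 10 targeted libraries. In bulk RNA, fewer cells carrying a transcript and less transcript per cell cannot be told apart.

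Bases upstream of the transcript start of DNTT, PTCRA and RAG2 are shown as a description, since these genes were all lower in targeted libraries. Sequence farther from the start was not examined, and a part of promoter sequence in the falls was not tested. The windows are RefSeq's, on build GRCh38.p14, and are written 5′ to 3′ on the strand of the gene, with capitals for E-boxes (CANNTG, the core bound by E proteins such as the product of TCF3) and for the GATA core AGATAA or its complement TTATCT. The stretches lie at chr10:96304184-96304395 on the plus strand (DNTT), chr6:42915803-42915988 on the plus strand (PTCRA) and chr11:36598280-36598486 on the minus strand (RAG2).
DNTT: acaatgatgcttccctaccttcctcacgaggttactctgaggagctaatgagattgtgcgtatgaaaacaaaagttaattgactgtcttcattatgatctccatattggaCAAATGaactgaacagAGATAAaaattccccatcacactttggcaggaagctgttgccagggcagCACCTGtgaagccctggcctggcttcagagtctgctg
PTCRA: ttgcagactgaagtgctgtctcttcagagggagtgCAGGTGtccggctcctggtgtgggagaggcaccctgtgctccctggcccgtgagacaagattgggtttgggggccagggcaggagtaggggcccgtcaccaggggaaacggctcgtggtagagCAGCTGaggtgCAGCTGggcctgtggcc
RAG2: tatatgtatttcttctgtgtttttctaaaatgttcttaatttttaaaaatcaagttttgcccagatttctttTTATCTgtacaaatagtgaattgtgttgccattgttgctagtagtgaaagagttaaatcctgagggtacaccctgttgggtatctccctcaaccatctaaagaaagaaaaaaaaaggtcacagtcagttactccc

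The 212 bases of DNTT hold 2 E-boxes, CAAATG and CACCTG, and 1 GATA core. The 186 bases of PTCRA hold 3 E-boxes, 1 of them CAGGTG and the other two CAGCTG, and the 207 bases of RAG2 hold 0 E-boxes and 1 GATA core. In the whole windows of 300 bases, which reach past the start, PTCRA had 4 E-boxes, DNTT 3, RAG1 1 and RAG2 1. Of 35116 RefSeq promoter windows of the same length, 68.7% hold at least 1 E-box on either strand, 15.3% hold 3 or more and 5.58% hold 4 or more. The GATA core, found in the windows of RAG2 and DNTT, is in 10.3% of all windows. The cores TGTGGT (RUNX) and TGGGAA (Ikaros) were in none of the 4 windows, against 13.1% and 24.0% of all windows. The RAG1 window is not printed, because the RefSeq start used for it lies 57672 bases upstream of the first base of the coding transcript in GENCODE v29. A match of letters is a description and not a binding site, and no binding was measured.

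RAG1, the catalytic subunit of the recombinase, had 625 and 660 normalised counts in CUTLL1 with guides 1 and 2, against 4318 in the non-targeting control. With ASOs 1 and 2 the same line had 610 and 595, against 4456 with the scrambled ASO. The 4 targeted CUTLL1 libraries lay close together and far under both controls, whichever way the RNA was targeted. KOPTK1 had 275 and 277 with guides, against 2162 in the control, and 324 and 244 with ASOs, against 2194. HPB-ALL had 876 and 916 with guides, against 4956 and 4819 in its controls. Groups did not overlap in any line, a separation not counted over all genes. Targeted HPB-ALL cells still held more RAG1 RNA than targeted cells of the other lines. By experiment, 14.9%, 12.8% and 18.3% of the control level was left with guides in CUTLL1, KOPTK1 and HPB-ALL, and 13.5% and 12.9% with ASOs in CUTLL1 and KOPTK1.

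RAG2, the chromatin-reading subunit, had 848 and 823 normalised counts in CUTLL1 with guides, against 2246 in the control, and 803 and 820 with ASOs, against 2102. KOPTK1 had 246 and 238 with guides, against 774, and 272 and 255 with ASOs, against 764. HPB-ALL had 332 and 335 with guides, against 1439 and 1486. Every targeted library lay under its controls, a separation not counted over all genes. The level left was lowest in HPB-ALL, the line in which RAG1 kept the most. RAG2 kept 37.2%, 31.3% and 22.8% of control with guides in CUTLL1, KOPTK1 and HPB-ALL, and 38.6% and 34.5% with ASOs in CUTLL1 and KOPTK1.

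**Figure D1:**
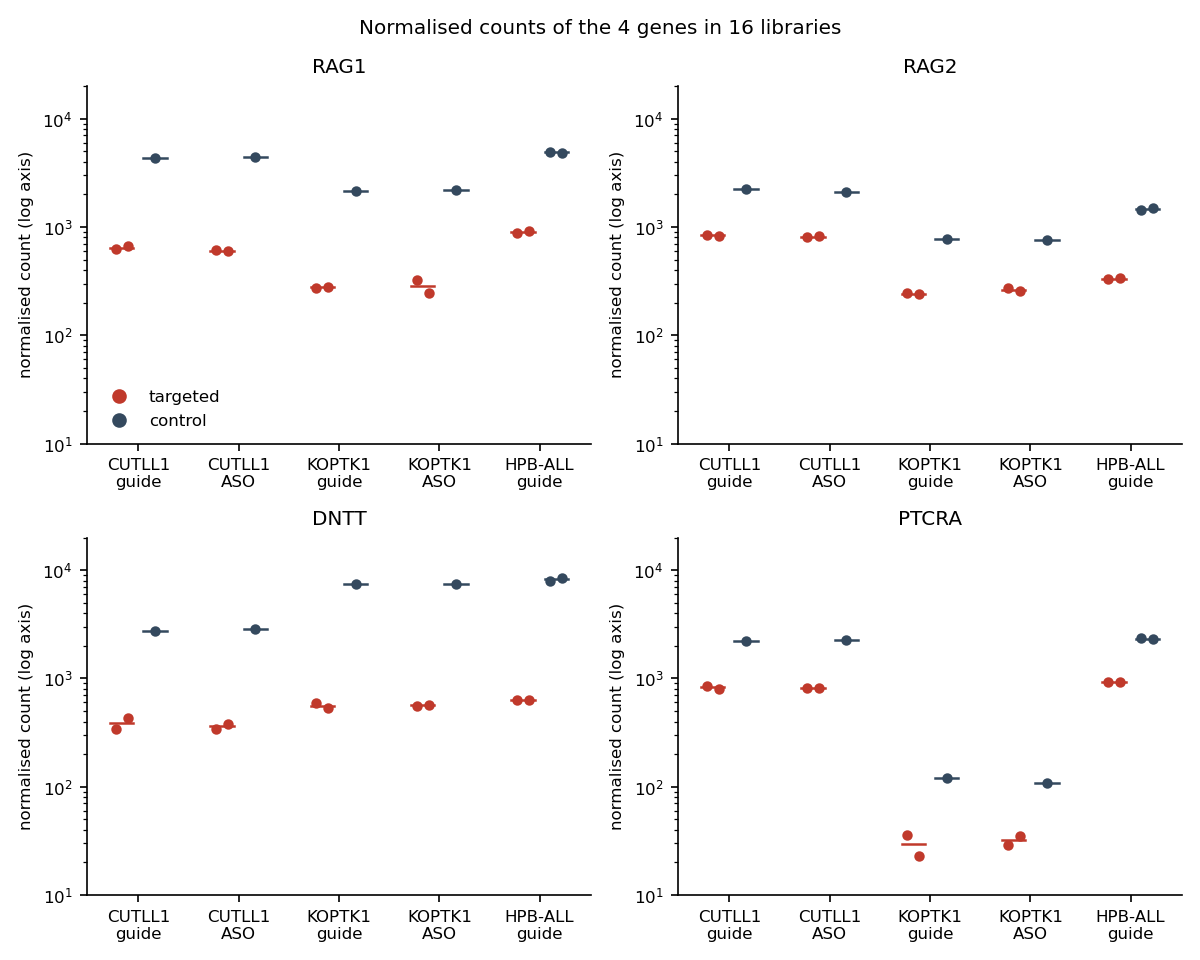
Normalised counts (log axis) of RAG1, RAG2, DNTT and PTCRA in all 16 libraries, by line and way of targeting; points are libraries, short lines are group means, red is targeted and dark blue is control. Every targeted point lies below every control point of its line, a separation not counted over all genes. PTCRA in KOPTK1 sits apart from the other lines, at 23.0 to 35.7 in targeted libraries and 108 to 119 in controls.

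DNTT, the TdT gene, had 343 and 432 normalised counts in CUTLL1 with guides, against 2763 in the control, and 342 and 378 with ASOs, against 2853. KOPTK1 had 589 and 532 with guides, against 7415, and 559 and 571 with ASOs, against 7435. HPB-ALL had 635 and 633 with guides, against 8004 and 8384. The controls of KOPTK1 and HPB-ALL held far more DNTT RNA than those of CUTLL1, while the targeted libraries of all 3 lines lay between 342 and 635. The level left was accordingly 14.0% and 12.6% in CUTLL1 with guides and ASOs, 7.55% and 7.60% in KOPTK1, and 7.74% in HPB-ALL with guides.

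PTCRA, the pre-T receptor alpha chain gene, had 856 and 796 normalised counts in CUTLL1 with guides, against 2192 in the control, and 823 and 809 with ASOs, against 2265. HPB-ALL had 935 and 920 with guides, against 2338 and 2300. These lines were alike in control level and in the level left, 37.7% and 36.0% in CUTLL1 with guides and ASOs and 40.0% in HPB-ALL. KOPTK1 had 35.7 and 23.0 with guides, against 119, and 28.9 and 34.9 with ASOs, against 108. KOPTK1 thus had far less PTCRA RNA than the other lines in both arms, and its targeted values rest on 29, 20, 33 and 26 recovered reads, against 123 and 165 in its controls. The library with 20 reads has an exact Poisson 95% interval of 12.2 to 30.9 reads, which covers counting error only. The level left in KOPTK1 was 24.6% with guides and 29.6% with ASOs.

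**Figure D2:**
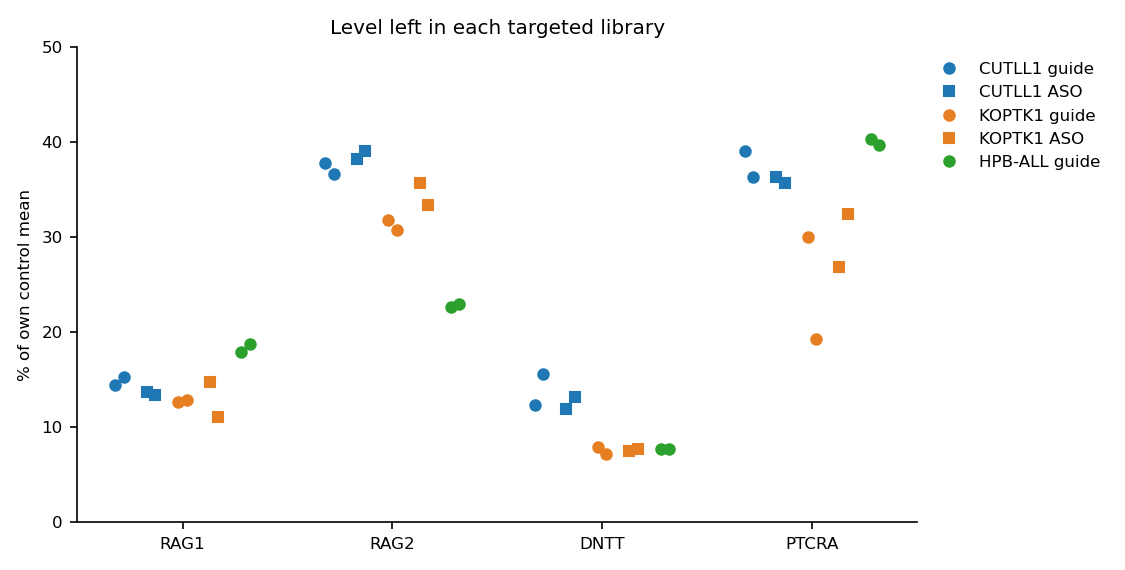
Level of each gene in each of the 10 targeted libraries as a percentage of the mean of its own control (linear axis, from 0); colours and symbols mark the 5 experiments. DNTT and RAG1 lie below 20% in every library, and RAG2 and PTCRA lie higher than both in each, with RAG2 in HPB-ALL closest to RAG1.

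Over all 16 libraries, with experiment as a term (limma, Benjamini-Hochberg over 14020 genes), the log2 fold change of targeted over control was -2.77 for RAG1 (SE 0.076, adjusted p 1.54e-12) and -1.67 for RAG2 (SE 0.087, adjusted p 5.73e-10). DNTT changed by -3.42 (SE 0.11, adjusted p 8.5e-12) and PTCRA by -1.57 (SE 0.10, adjusted p 6.84e-09). All 4 genes were called lower, in a comparison in which 38.8% of all genes tested were called lower, so the calls alone do not set these genes apart. The size of the fall is less common: 470 genes, 3.35% of those tested, were called and fell by more than 2 on the log2 scale, and they include DNTT and RAG1 but not RAG2 or PTCRA. Ordered from the lowest log2 fold change of the 14020, DNTT stood at place 92, RAG1 at 186, RAG2 at 687 and PTCRA at 776. The median of all genes was -0.03.

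Guides and ASOs were also fitted apart. With guides (10 libraries, cell line as a term, limma), RAG1 changed by -2.68 on the log2 scale (SE 0.082, adjusted p 2.1e-08), RAG2 by -1.80 (SE 0.11, adjusted p 6.43e-07), DNTT by -3.46 (SE 0.14, adjusted p 8.52e-08) and PTCRA by -1.54 (SE 0.15, adjusted p 9.76e-06), each called lower beside 35% of all genes. With ASOs (6 libraries), RAG1 changed by -2.92 (SE 0.11, adjusted p 8.69e-06), RAG2 by -1.45 (SE 0.071, adjusted p 1.47e-05), DNTT by -3.35 (SE 0.16, adjusted p 1.34e-05) and PTCRA by -1.60 (SE 0.12, adjusted p 6.43e-05), each called lower beside 33.2% of all genes. In CUTLL1 and KOPTK1, where both were used, the guide effect minus the ASO effect was 0.07 for RAG1 (95% interval -0.20 to 0.33, adjusted p 0.86), -0.10 for RAG2 (-0.26 to 0.06, adjusted p 0.621), 0.07 for DNTT (-0.18 to 0.32, adjusted p 0.844) and -0.11 for PTCRA (-0.54 to 0.32, adjusted p 0.849). In this contrast, averaged over both lines, limma called none of the 4 genes and 0% of all genes (0 of 14020, with 1393 at an unadjusted p under 0.05). None of the 4 was called within CUTLL1 or within KOPTK1 either. Of all 14020 genes, only 3 were called above 0 and 2 below 0 within CUTLL1, and 4 above and 6 below within KOPTK1. The lack of calls is therefore not particular to these 4 genes. These intervals leave room for differences of up to about the bounds given, which are widest for PTCRA.

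Guide 2 minus guide 1 over the 6 targeted guide libraries was 0.05 for RAG1 (adjusted p 0.629), -0.03 for RAG2 (adjusted p 0.854), 0.06 for DNTT (adjusted p 0.767) and -0.25 for PTCRA (95% interval -0.54 to 0.05, adjusted p 0.371). None was called, and limma called 0% of 13718 genes, with 2193 at an unadjusted p under 0.05. The mean chi-square per gene, where 1 would be counting noise alone, was 2.34 to 6.75 between libraries of 1 group. Between guide and ASO libraries of the same line and arm it was 1.73 to 14.5. The highest value was KOPTK1 guide 2 against KOPTK1 ASO 1, and the next was 6.35, so most such pairs lay within the range of 1 group. When each line and arm counted as 1 value, 4 of 4 genes were still called lower in the joint comparison (limma, adjusted p 0.00109 to 0.00193). In that setting 3601 of the 14020 genes tested were called lower.

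In each experiment taken alone, from a fit of 10 group means that lends a lone control the spread of the other groups, all 4 genes were called lower. With guides in CUTLL1, where 31.5% of all genes were called lower, the log2 fold changes were -2.75 for RAG1, -1.43 for RAG2, -2.84 for DNTT and -1.41 for PTCRA. With guides in KOPTK1 (33.1% of genes called lower) they were -2.97, -1.67, -3.73 and -2.02 in the same order of genes, and in HPB-ALL (36.9%) -2.45, -2.13, -3.69 and -1.32. With ASOs they were -2.88, -1.37, -2.99 and -1.47 in CUTLL1 (31.8%) and -2.96, -1.53, -3.72 and -1.73 in KOPTK1 (32.8%). CUTLL1 stands out by its smaller DNTT fall and HPB-ALL by its larger RAG2 fall.

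**Figure D3:**
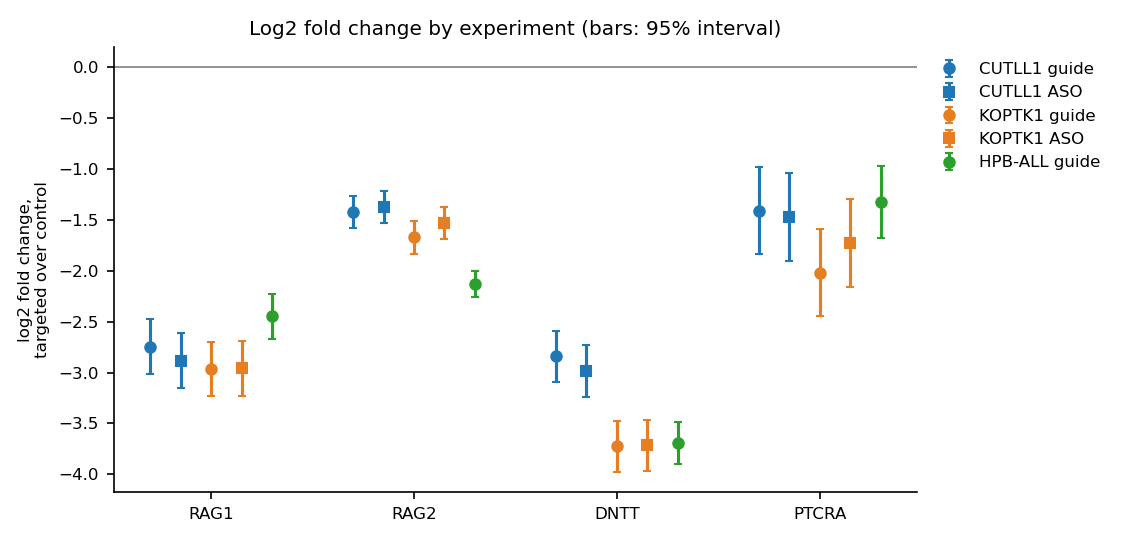
Log2 fold change, targeted over control, of each gene in each of the 5 experiments (limma), with bars for the 95% interval. All estimates lie below 0, from -3.73 (DNTT, KOPTK1 guides) to -1.32 (PTCRA, HPB-ALL guides).

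Whether the guide effect differed between the lines was tested directly, by an F test over the 3 guide effects. RAG2 differed most clearly of the 4 (F 30.8, adjusted p 0.000347), followed by DNTT (F 20.3, adjusted p 0.00138). RAG1 was just past the threshold (F 5.61, adjusted p 0.0484) and PTCRA was not (F 4.12, adjusted p 0.0899). Such differences were common, with 43.7% of all genes called. The RAG1 call was lost with quantile scaling (adjusted p 0.192) and on leaving out any of 10 libraries (both CUTLL1 and both KOPTK1 targeted guide libraries, all 4 HPB-ALL libraries and both targeted CUTLL1 ASO libraries), at adjusted p values up to 0.128. PTCRA went past the threshold without KOPTK1 guide 1 (F 21.8, adjusted p 0.00155), the targeted library with 29 PTCRA reads.

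The 2 recombinase genes differed in opposite directions in HPB-ALL. Against the mean of CUTLL1 and KOPTK1, the guide effect in HPB-ALL differed by -0.58 on the log2 scale for RAG2 (SE 0.078, adjusted p 0.000178), a larger fall, and by 0.41 for RAG1 (SE 0.13, adjusted p 0.0299), a smaller fall. For DNTT the difference was -0.41 (SE 0.12, adjusted p 0.0233), and for PTCRA it was 0.39 (SE 0.21, adjusted p 0.172). DNTT fell about as far in HPB-ALL (-3.69) as in KOPTK1 (-3.73), and its difference reflects the smaller fall in CUTLL1 (-2.84). In this contrast 38.3% of all genes were called. The RAG1 call was lost with quantile scaling (0.28, adjusted p 0.0964), on leaving out any of the 4 HPB-ALL libraries (adjusted p 0.0576 to 0.0929) or guide 1 of CUTLL1 (adjusted p 0.0587). The DNTT call was lost without HPB-ALL control 2, guide 1 or guide 2 (adjusted p 0.0599 to 0.0855), while the RAG2 difference stayed between -0.60 and -0.56 without each library.

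CUTLL1 minus KOPTK1 gave 0.88 for DNTT (SE 0.16, adjusted p 0.00414), so that DNTT fell less in CUTLL1, the line with the lowest DNTT level in controls. The same contrast was 0.22 for RAG1 (adjusted p 0.453), 0.25 for RAG2 (adjusted p 0.131) and 0.61 for PTCRA (adjusted p 0.171), none of them called, where 16.1% of all genes were. Without KOPTK1 guide 1 the PTCRA difference was 0.91 (adjusted p 0.00652).

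Compared library by library, on the log2 scale against its own control, RAG1 minus RAG2 ran from -1.58 to -0.29 over the 10 targeted libraries, with the HPB-ALL pair nearest to 0. RAG1 also fell further than PTCRA in 10 of 10, and DNTT further than RAG2 and than PTCRA in 10 of 10. RAG1 fell further than DNTT in 1 of 10, CUTLL1 guide 2, by 0.03. RAG2 fell further than PTCRA in 3 of 10, both HPB-ALL libraries and CUTLL1 guide 1. The difference between DNTT and RAG1 was smallest in CUTLL1, where DNTT fell least.

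The lines differed in these genes before targeting. In control libraries RAG1 averaged 4887 ± 96.6 normalised counts in HPB-ALL, 4387 ± 97.6 in CUTLL1 and 2178 ± 22.5 in KOPTK1 (SD, n = 2 each), and the log2 differences were 0.16 for HPB-ALL over CUTLL1 and 1.17 for HPB-ALL over KOPTK1. RAG2 was highest in CUTLL1, with 1462 in HPB-ALL, 2174 in CUTLL1 and 769 in KOPTK1. DNTT averaged 8194 in HPB-ALL, 2808 in CUTLL1 and 7425 in KOPTK1, and its smallest step, HPB-ALL over KOPTK1, was 0.14 (adjusted p 0.00404). PTCRA averaged 2319 in HPB-ALL, 2229 in CUTLL1 and 113 in KOPTK1, 4.34 and 4.29 lower on the log2 scale in KOPTK1 than in the other lines. Of the 12 differences between lines, 11 were called (limma over the 6 controls), the exception being PTCRA in HPB-ALL over CUTLL1 (0.06, adjusted p 0.417). Nearly all genes differ this way: 79.4% were called between HPB-ALL and CUTLL1, 79.5% between HPB-ALL and KOPTK1, 76.1% between CUTLL1 and KOPTK1, and 92.7% in the F test over the lines.

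Levels of different genes were compared per kilobase (kb) of the longest coding transcript in GENCODE v29, which has 6564 bases for RAG1, 2818 for RAG2, 1972 for DNTT and 1125 for PTCRA. In HPB-ALL the normalised counts per kb were 136 for RAG1, 118 for RAG2, 321 for DNTT and 824 for PTCRA in targeted libraries, against 745, 519, 4155 and 2061 in controls. DNTT thus led in the controls and PTCRA in the targeted libraries. CUTLL1 had 94.9, 292, 189 and 730 per kb in targeted libraries, against 668, 771, 1424 and 1981 in controls. PTCRA led and RAG1 was lowest there in both arms, while RAG2 was above DNTT in targeted libraries and below it in controls. KOPTK1 had 42.7, 89.7, 285 and 27.2 per kb in targeted libraries, against 332, 273, 3765 and 101 in controls. There DNTT led in both, and RAG1 was above RAG2 in controls and below it in targeted libraries. RAG1 and RAG2 lie on opposite strands of chromosome 11 and their GENCODE v29 gene models overlap by 17583 bases. Whether strand was used in counting is not given in the sources used here, so reads in the overlap cannot be assigned with certainty.

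**Figure D4:**
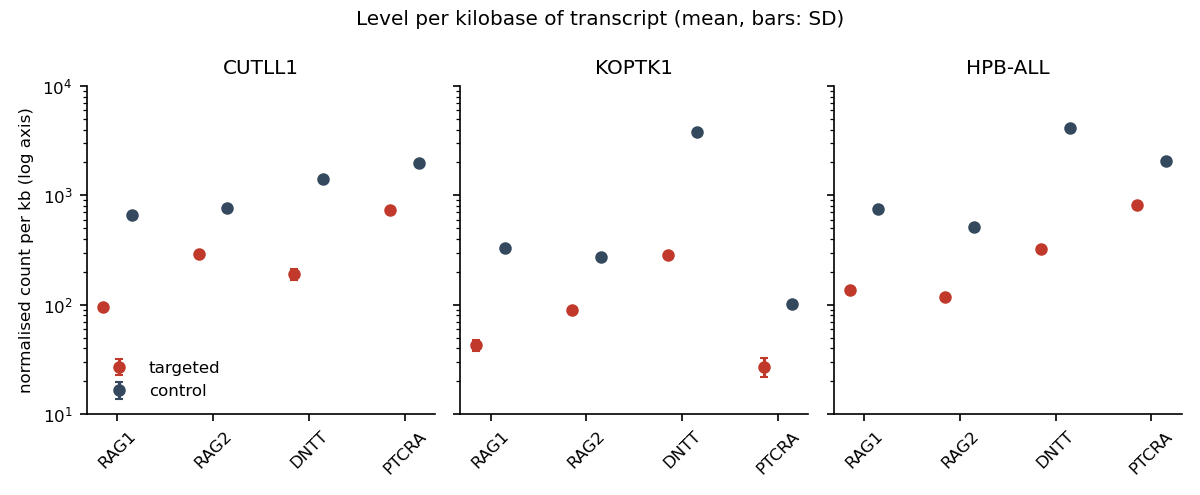
Normalised count per kb of transcript (log axis) of the 4 genes in each line, as mean and SD over targeted (red, left) and control (dark blue, right) libraries. In HPB-ALL controls DNTT is highest at 4155 per kb, and in HPB-ALL targeted libraries PTCRA is highest at 824 per kb.

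Genes that join the ends cut by the recombinase, and its cofactors, did not all change in 1 direction. Of 12 joining and cofactor genes, 11 could be tested. In the joint comparison 6 fell, 1 rose and 4 were not called, with a median log2 fold change of -0.13. Over all genes the median was -0.03, and 36.2% rose and 38.8% fell. XRCC4, the partner of DNA ligase IV, fell by 1.05 on the log2 scale, DCLRE1C, which encodes the hairpin-opening nuclease Artemis, by 0.44, and XRCC5, the Ku80 gene, by 0.36. HMGB2, a DNA-bending cofactor of the recombinase, rose by 0.56. NHEJ1 was too low to test. Of the relatives of TdT in polymerase family X, POLB rose by 0.59 and POLM fell by 0.23 (adjusted p 0.0457), with -0.38 in the guide comparison and 0.03 in the ASO comparison (adjusted p 0.651), and POLL was too low to test at a highest count of 23.8.

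Of 20 listed regulators of these genes or of early T-cell development, 13 fell and 3 rose in the joint comparison, with a median of -0.42. Over all genes 38.8% fell and 36.2% rose, around a median of -0.03. IKZF1, which encodes Ikaros, fell by 2.02 on the log2 scale, and MYB fell by 0.74. TCF3, which encodes the E protein E2A, fell by 0.75. FOXO1, a factor known to drive Rag transcription in mouse B-lineage cells, rose by 1.68. ID2, an inhibitor of E proteins and named here after its value was seen, rose by 1.64. ID3, another inhibitor of E proteins on the list and likewise named afterwards, fell by 0.85. The other gene that rose was FOXO3, by 0.37. FOXO1 was at 474 ± 0.379 normalised counts in targeted HPB-ALL libraries, against 173 ± 22.1 in controls (SD, n = 2 each).

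Most partners of the pre-T receptor fell. Of 12 listed, 10 could be tested, and 7 fell and 1 rose, with a median of -0.91, beside the 38.8% and 36.2% of all genes that did. CD3E, a signalling chain of the receptor, fell by 1.45 on the log2 scale, the kinase gene ZAP70 by 1.25, and the adaptor genes LAT and LCP2 by 1.46 and 2.06. FYN, a kinase gene, was the 1 that rose, by 0.47. Among the rest of the list, LCK fell by 2.44, CD3D by 0.58 and CD3G by 0.32, while TRBC2 (-0.15) and CD247 (-0.38) were not called. SYK was too low to test and TRBC1 was not matched.

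**Figure D5:**
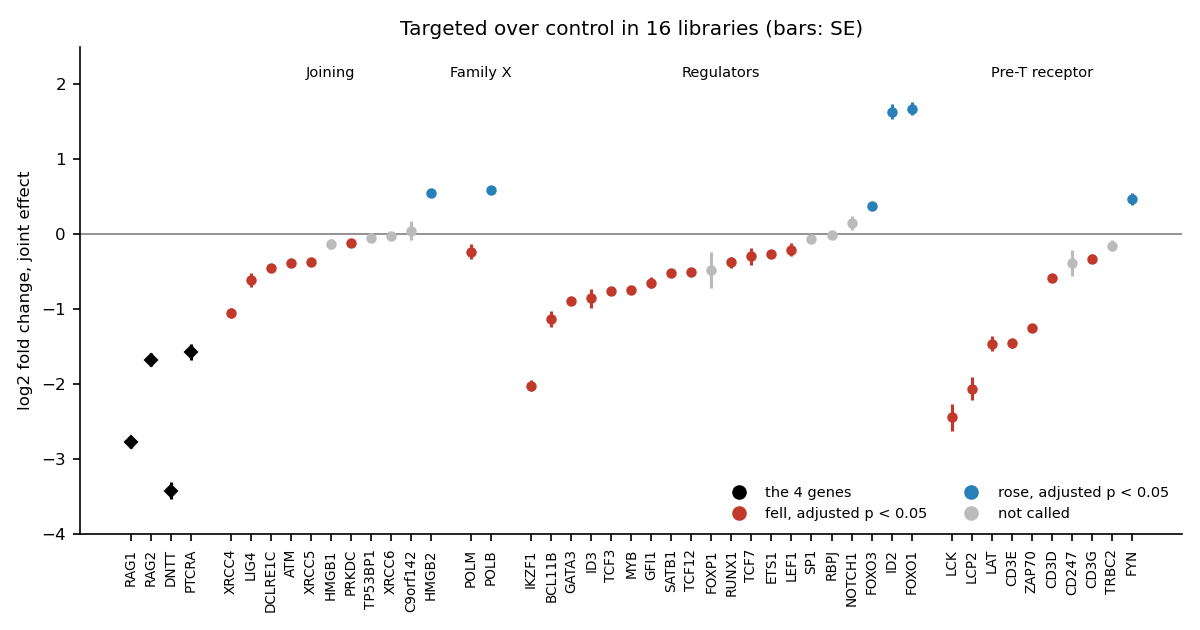
Joint log2 fold change, targeted over control, in 16 libraries (bars: SE) for the 4 genes (black) and the tested members of the joining, family X, regulator and pre-T receptor lists. Red marks genes called lower, blue genes called higher and grey genes not called. DNTT (-3.42) and RAG1 (-2.77) lie below every listed gene, and RAG2 and PTCRA lie among the lowest.

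Genes beside the 4 on the chromosome did not fall with them as blocks. Next to RAG1 and RAG2, COMMD9 fell by 0.82 on the log2 scale, while TRAF6 rose by 0.33 and API5 by 0.38, and the other 3 neighbours were too low to test. Near DNTT, CCNJ fell by 0.40, ZNF518A (0.07) and TM9SF3 (0.03) were not called, and TLL2 rose by 1.96, at 205 normalised counts in targeted HPB-ALL libraries against 30.2 in controls. Near PTCRA, GLTSCR1L fell by 1.43, RPL7L1 by 0.47 and CNPY3 by 0.39, while C6orf226 rose by 0.68 and GNMT by 0.36. RAG2 also overlaps C11orf74 on the other strand by 3787 bases, a gene with at most 8.06 normalised counts in any library, and DNTT overlaps an antisense gene by 2300 bases that was not matched in the table.

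The genes whose changes were most like those of each member were found by the mean absolute difference of log2 fold changes over the 10 targeted libraries. For RAG1 they were LTB (0.19), RP11-472G21.2 (0.21) and CD27 (0.21), and for DNTT they were CD2 (0.30), CD1B (0.33) and TMEM156 (0.33). For RAG2 they were RAD51D (0.074), ZMYND8 (0.087) and MEX3A (0.091), and for PTCRA MLLT6 (0.12), PYCARD (0.15) and ENO3 (0.15). None of the 4 was among the 3 genes most like another. RAG2 lay 0.30 from PTCRA but 1.17 from RAG1, with which it shares its locus, and DNTT lay 0.60 from RAG1. Ordered by closeness, PTCRA stood only at place 125 for RAG2, and DNTT at place 120 for RAG1. The measure largely follows the size of the fall.

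Libraries held 34547469 to 72178929 recovered reads, and 0 entries carry the name of the lncRNA, and the level of the lncRNA itself was not analysed. The T-lineage identity of the lines was present, with 13 of 13 marker genes above the filter in every line and arm. Their summed normalised counts were 79614 to 99205 in targeted libraries and 187592 to 246961 in controls, and 12 of 13 fell in the joint comparison, with a median of -1.45, as did 38.8% of all genes tested. RAG1, RAG2 and DNTT are also B-lineage genes: of 10 B-lineage markers 3 could be tested and all 3 were called lower, beside the same 38.8% of all genes. IGLL1 fell by 3.65 on the log2 scale, CD79B fell by 2.39 and CD79A fell by 1.47. Their sums were 313 to 2047 in targeted libraries and 899 to 10877 in controls, while MS4A1 and CD22 were at or near 0, at highest counts of 0.952 and 6.61. Of 6 cytotoxic markers, 2 were tested and fell (PRF1 and NKG7), at sums of 211 to 689 in targeted libraries and 909 to 2324 in controls, with GZMB and KLRD1 at 0 in some groups. Of 10 myeloid markers, only AIF1 was tested and fell by 0.63, at sums of 2633 to 7585 in targeted libraries and 4153 to 11784 in controls, with ELANE and CD33 at 0 throughout, and 0 of 6 erythroid markers could be tested. The part of these marker changes in the fall of RAG1, RAG2, DNTT and PTCRA was not tested.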

How the data were processed

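RNA-seq libraries were prepared with a directional Illumina kit, per the labels' protocols. The authors' deposited table gives a signal of normalised read counts per gene for 16 libraries, and, per the submitters' processing notes, STAR 1.4.2, DESeq2 and hg19 were used, in roles the notes leave out. Counter, annotation and strand setting are likewise not given in the sources. All values in a deposited column are whole multiples of its smallest nonzero value (100%, tolerance 1e-06), which gave recovered reads of 34547469 to 72178929 per library. Each targeted group has 2 libraries and each control 1 or 2, which limits the precision.

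From these values, log2(normalised count + 1) was fitted with limma 3.58.1 (empirical Bayes, intensity trend) in R 4.3.3, for genes averaging at least 20, with Benjamini-Hochberg adjustment over all genes tested and a threshold of 0.05. The added 1 shrinks fold changes of low genes. Terms were cell line (guide, ASO and guide 2 minus guide 1 comparisons, line levels in controls), experiment (joint) or the 10 groups (single experiments, line differences, guides minus ASOs). Alternatives were edgeR 4.0.16 and DESeq2 1.42.0 on recovered reads, without CUTLL1 ASO 1, whose read step near 1 could not be checked; a pseudocount of 5; no filter or a mean of 100; other scalings; robust moderation; a replicate block; and leaving out each library. The fits were tested on simulated counts with 200 changed genes. The guide and ASO numbers are called replicates in the descriptions of the labels and were used as such.

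The 4 genes and the gene lists were chosen with earlier results of these data known. Named from each list were up to 4 members with the smallest joint p, the relatives POLM and POLL, chromosomal neighbours by RefSeq order (names only), and the 3 genes most like each member. Transcript lengths and overlaps came from GENCODE v29, on another build than the files' hg19, matched by symbol.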

Additional observations from a re-analysis of the deposited data

Results flagged for a closer look

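The guide effect differed between CUTLL1, KOPTK1 and HPB-ALL for 3 of the 4 genes by an F test of the difference itself (limma, adjusted over 14020 genes), a test in which 43.7% of all genes were called. RAG2 had an adjusted p of 0.000347, with 22.8% of control left in HPB-ALL against 37.2% in CUTLL1 and 31.3% in KOPTK1. DNTT had an adjusted p of 0.00138, with 14.0% left in CUTLL1 against 7.55% in KOPTK1 and 7.74% in HPB-ALL. RAG1 had an adjusted p of 0.0484, with 18.3% left in HPB-ALL, 14.9% in CUTLL1 and 12.8% in KOPTK1, and that call held under 5 of 16 alternatives.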

How the results depend on the processing

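Of 1104 values of the 4 genes under alternatives, 1068 kept their direction and their side of the threshold. Many of these left out a library outside the groups compared, which cannot move the estimate, so this total overstates stability. In the guide, ASO and joint comparisons all 4 genes stayed called lower under every alternative run, with joint log2 fold changes of -2.81 to -2.66 for RAG1, -1.74 to -1.49 for RAG2, -3.55 to -3.35 for DNTT and -1.60 to -1.39 for PTCRA. The changes were in the differences of the guide effect between lines and between guides and ASOs. Of these, 13 changed sign, 0 of them called under either setting. With quantile scaling RAG1 missed the threshold in the F test (F 2.57, adjusted p 0.192) and in HPB-ALL minus the mean of CUTLL1 and KOPTK1 (0.28). CUTLL1 minus KOPTK1 there changed sign for RAG1 (-0.0070) and RAG2 (-0.043), and the guide effect minus the ASO effect in KOPTK1 did so for RAG1 (0.022) and DNTT (0.015). Quantile scaling set the median of all genes at 0.07 in the guide comparison, against -0.03 as deposited. Leaving out each library moved that RAG1 difference between 0.38 and 0.44 and the RAG1 F between 3.63 and 23.6, highest without KOPTK1 ASO 1 or 2. It moved the DNTT difference between -0.49 and -0.32, and the DNTT F between 16.3 and 51.2, highest without CUTLL1 guide 1. For PTCRA it moved HPB-ALL minus the mean between 0.24 and 0.54, CUTLL1 minus KOPTK1 between 0.30 and 0.91 and F between 3.14 and 21.8, each highest without KOPTK1 guide 1. For the guide effect minus the ASO effect averaged over CUTLL1 and KOPTK1, leaving out each library gave -0.036 to 0.17 for RAG1, -0.016 to 0.15 for DNTT and -0.26 to 0.042 for PTCRA. Within KOPTK1 it gave -0.21 to 0.20 for RAG1, -0.083 to 0.063 for DNTT and -0.59 to 0.019 for PTCRA, and within CUTLL1 -0.022 to 0.31 for DNTT. The causes were not tested.

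The joint comparison called 5076 genes higher and 5438 lower, and with quantile scaling 6085 higher and 4627 lower. The count tests on recovered reads called 5232 higher and 5606 lower (edgeR) and 5057 higher and 5543 lower (DESeq2). Counting each line and arm as 1 value, an alternative chosen after seeing the data, called 3330 higher and 3601 lower. Same-numbered libraries did not deviate together (correlations of -0.01 to 0.07), which cannot exclude a pairing by number. With the replicate block the joint values were -2.73 for RAG1, -1.69 for RAG2, -3.46 for DNTT and -1.52 for PTCRA. In that setting 4955 genes were called higher and 5320 lower. Single control libraries in 4 of the 5 experiments and the few PTCRA reads in KOPTK1 limit the precision.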
